A study of Mus musculus with 7 samples.

Results

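The dispersed developmental homeobox and paired genes are the Dlx, Lhx, Pax, Irx, Msx, Emx, Otx, Meis, Nkx and Gsx genes and the sine oculis genes, which encode DNA-binding regulators of embryonic patterning and lie outside the Hox clusters. They were chosen by name alone: a transcription start site (TSS) was taken when its gene symbol began with one of these family names followed by a digit. This gave 71 of the 36733 TSS regions, which belong to 60 of the 17690 genes with a RefSeq identifier. One of the 60, Six6os1, is a transcript from the strand opposite Six6 and encodes no homeodomain protein. The signal at these promoters was measured by ChIP-seq in E14 mouse embryonic stem cells (ESCs), grown without feeders in serum and LIF, in 7 libraries with 1 library per condition. Tip60 and Hdac6 were each precipitated with the Flag-M2 antibody from ESCs in which the endogenous gene carries a C-terminal histidine and Flag (H3F) tag, with a single copy of Tip60 tagged. Tip60-H3F ESCs were infected with lentivirus for knockdown (KD) of GFP, the control, or of Hdac6, and Hdac6-H3F ESCs for KD of GFP or of Tip60. The p400 protein was precipitated with an antibody to the endogenous protein from untagged E14 ESCs upon GFP KD or Hdac6 KD. Cells were taken 72 hr after infection. Untagged E14 ESCs, for which the labels name no KD, gave the background of the Flag antibody. The tag and the GFP KD therefore cannot be told apart in a comparison of a Flag ChIP with this control. For the library titled as Hdac6 ChIP upon Tip60 KD, the genotype label names an Hdac6 KD instead. It is called here by its title. Expression was not analysed here, so the cell type was not checked against marker genes.

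Tip60-p400 is a chromatin remodeling complex: Tip60 is its histone acetyltransferase subunit, and p400 is its ATPase, which exchanges histone variants. Hdac6 is a deacetylase that is mostly cytoplasmic in many cell types. In ESCs, the genes described here are mostly silent or very low. Many of their promoters are CpG islands that carry Polycomb marks, and they are switched on in particular lineages as cells differentiate. Antennapedia-class homeodomain proteins (Nkx, Msx, Dlx, Emx, Gsx) pattern the forebrain, heart, limbs and foregut. Pax proteins bind DNA through a paired domain, Otx proteins through a paired-like homeodomain. Lhx proteins carry LIM domains, sine oculis proteins act in eye and muscle development, and Irx and Meis proteins have the extended homeodomain of the TALE class.

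The promoter signal of a gene is its mean coverage from −500 to 500 bp around the TSS, in ppm (coverage normalized to the number of mapped reads). Where a gene had several TSS regions, the one with the highest mean number of reads over all libraries was used. Promoters of these genes held few reads: the median over the 60 genes ran from 9 (Tip60, Hdac6 KD) to 20.5 (p400, GFP KD), and single genes had between 1 and 36. Of the 60 genes, 54 reached a mean of 10 reads over the 7 libraries and entered the comparisons, as did 13950 of all genes. Since no condition has a replicate, no test between conditions was possible. A gene was counted as changed only if the ratio passed 1.5-fold, and the main counts over the 54 genes are set against the share of all genes that passed the same fold. Counts under other limits or settings, or in a part of the 54 genes, are mostly given without that share. Intervals are 95% exact binomial intervals of the reads. They cover counting error only, since reads can be copies of the same molecule and the spread between cultures is unknown. Read coverage spans 299 bp per read in the Tip60, untagged and p400 libraries and 148 to 149 bp in those of Hdac6, so Hdac6 values in ppm are set against the untagged control only after scaling to the span.

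Base composition set these promoters apart from the average gene, as it did those of the other developmental regulators described below. From −500 to 500 bp their median GC content was 61.3% (44.9% in Meis2 to 72.8% in Irx2), against 56.2% over all genes, with a median of 64.5 CpGs against 47. A CpG-rich promoter, defined as at least 55% GC with an observed-to-expected CpG ratio of at least 0.65, was found in 37 of 60 genes (61.7%) and in 38.7% of all genes. The sequences below show this range. They are the 250 bases just before the TSS on the strand of the gene, in mm9, for the 2 genes with the lowest and the 2 with the highest promoter GC content among the 18 genes in the comparisons whose 250 bases hold no annotated exon. Capitals mark CpG dinucleotides. The windows are chr2:35959581-35959830 for Lhx6, on the minus strand with 7 CpGs, and chr12:57637896-57638145 for Nkx2-1, on the minus strand with 9. Lhx2, on the plus strand at chr2:38206578-38206827, has 24 CpGs, and Six5, on the plus strand at chr7:19679643-19679892, has 13.
Lhx6: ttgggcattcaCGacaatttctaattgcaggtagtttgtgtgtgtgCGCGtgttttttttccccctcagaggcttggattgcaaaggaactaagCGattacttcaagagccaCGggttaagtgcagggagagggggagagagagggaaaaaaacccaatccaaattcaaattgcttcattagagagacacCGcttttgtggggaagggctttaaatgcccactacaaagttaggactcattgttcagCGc
Nkx2-1: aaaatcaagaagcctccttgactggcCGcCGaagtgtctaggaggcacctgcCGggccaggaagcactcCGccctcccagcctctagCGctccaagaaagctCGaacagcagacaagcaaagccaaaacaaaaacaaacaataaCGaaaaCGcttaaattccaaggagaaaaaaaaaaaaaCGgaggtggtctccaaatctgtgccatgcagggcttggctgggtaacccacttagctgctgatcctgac
Lhx2: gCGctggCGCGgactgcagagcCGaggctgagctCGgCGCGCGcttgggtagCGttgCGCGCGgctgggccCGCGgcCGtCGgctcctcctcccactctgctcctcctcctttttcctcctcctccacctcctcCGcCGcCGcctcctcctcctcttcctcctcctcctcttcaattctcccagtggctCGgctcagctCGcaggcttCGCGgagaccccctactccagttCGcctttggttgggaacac
Six5: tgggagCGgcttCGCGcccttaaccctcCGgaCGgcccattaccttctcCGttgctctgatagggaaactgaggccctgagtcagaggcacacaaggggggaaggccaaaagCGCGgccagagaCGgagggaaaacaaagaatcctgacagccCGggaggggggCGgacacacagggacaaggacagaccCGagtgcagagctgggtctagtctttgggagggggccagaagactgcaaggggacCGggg
The Lhx2 window belongs to the start used here, which lies 12027 bp from another annotated start of the gene. Lhx6 and Nkx2-1 also have another TSS region, with 65.1% and 61.1% GC, so their place at the low end depends on the region used. In these 250-base windows the GC box GGGCGG (or CCGCCC on the other strand) was present in 37 of 60 genes (61.7%) against 46.4% of all genes. Among CpG-rich promoters it was present in 26 of 37 genes of the group (70.3%) against 75.2%. TATAAA or its complement was present in 5 of 60 (8.33%) against 11.8% of all genes. Among CpG-rich promoters the order was reversed, with 4 of 37 (10.8%) against 4.23%. The palindrome TAATTA, the core that many homeodomains recognise, was present in 2 of 60 (3.33%) against 4.08%. Among CpG-rich promoters it was present in 1 of 37 against 65 of 6839. These differences rest on few genes and were not tested.

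Tip60 signal at these promoters was close to the background of the antibody, and a difference was not detectable at this depth. Averaged over the 60 genes, it was 0.144 ppm upon GFP KD against 0.141 ppm in untagged ESCs, whereas over all genes it was 0.195 against 0.160 ppm. The median gene of the group lay at the 31.2 percentile of all genes for Tip60, 47 of 60 lay below the median of all genes, and none reached the top 10%. The single genes ranged from 0.0395 ppm (3 reads) at Irx2 to 0.307 ppm (22 reads) at Six6os1. Over the 54 genes together, the ratio of Tip60 to untagged signal was 1.03 (0.924 to 1.16), against 1.24 (1.24 to 1.25) over all genes. The same was seen among promoters of like base composition: at its 34 CpG-rich promoters in the comparison the ratio was 1.04 (0.894 to 1.21), while over all 6588 genes with a CpG-rich promoter it was 1.41.

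**Figure D1:**
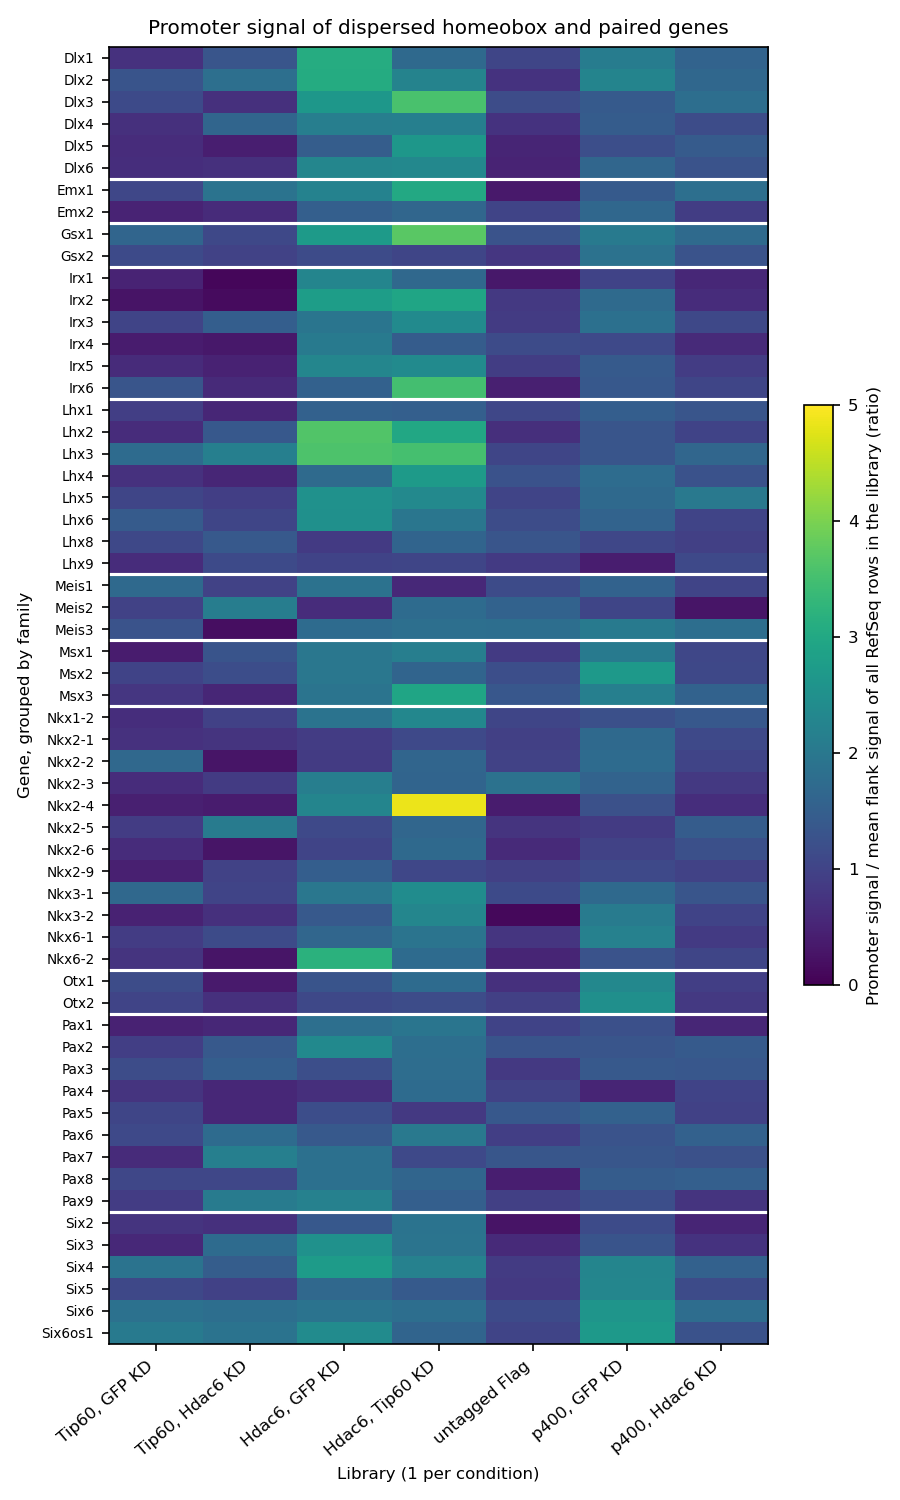
Promoter signal of 59 of the 60 genes (vertical axis, grouped by family) in each of the 7 libraries (horizontal axis), as a ratio to the mean flank signal of all RefSeq rows in that library. Each cell is 1 gene in 1 library without replicates. The Hdac6 columns are the brightest, p400 upon GFP KD is brighter than upon Hdac6 KD, and the Tip60 columns resemble the untagged control.

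By gene, 12 of the 54 were more than 1.5-fold above the untagged control and 12 more than 1.5-fold below it. Of all genes, 33.3% were above and 11.2% below. The difference between the group and all genes was not tested, and at a 2-fold limit the counts were 5 above and 7 below. The highest ratio, 4.51, was that of Nkx3-2, a regulator of axial skeleton, but it rests on 5 reads against 1 in the untagged library, and its counting interval runs from 0.607 to 257. Emx1 followed with 3.11 (12 against 4 reads). Irx6 was at 2.91 (14 against 5 reads; interval 1.03 to 10.8). Pax8, which acts in thyroid and kidney, was at 2.52 and Six4 at 2.11. At the other end, Irx2 had a ratio of 0.313, Nkx2-3 of 0.332 (7 against 23 reads; interval 0.120 to 0.795), Msx1 of 0.439, Pax7 of 0.448 and Nkx2-9 of 0.454. The intervals of Irx6 and Nkx2-3 were the only ones of the 54 that left out 1 (1.85% on each side), against 11.5% of all genes above 1 and 1.71% below. No gene of the group passed an adjusted p of 0.05 in an exact binomial test of the reads, which compares the libraries and not the conditions; 2 of the 54 had an unadjusted p below 0.05, against 1850 of the 13950 genes, and the lowest adjusted p was 0.177. The same test called 2.35% of all genes higher and 0.122% lower.

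The sine oculis family came nearest to a Tip60 signal above background. Its 6 genes in the comparison, Six6os1 included, held 95 reads in the Tip60 library and 63 in the untagged library, a ratio of 1.65 (1.18 to 2.29), and 4 of 6 passed 1.5-fold upward. Signal in ppm for Tip60 and untagged was 0.284 and 0.135 at Six4, 0.307 and 0.156 at Six6os1, and 0.279 and 0.173 at Six6. These 3 start on chromosome 12 at positions 74214232, 74018752 and 74040932. Six6 and Six6os1 start 22180 bp apart, so their windows share no reads. At Six3, which patterns the anterior forebrain, the values were 0.0855 and 0.0923 ppm. The lowest family ratio was that of the 3 Msx genes, 0.62 (0.36 to 1.05), with 24 reads against 42. The intervals of the other 9 families all held 1, for example 0.871 (0.645 to 1.19) for the 8 Pax genes and 0.959 (0.737 to 1.28) for the 11 Nkx genes. Family ratios were read off 11 families, and a single library stands behind each side.

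Hdac6, in contrast, was above the untagged control at most of these promoters. The mean signal upon GFP KD was 0.168 ppm, against 0.0701 ppm in untagged ESCs after scaling to the read span. This comparison was not corrected for GC content. In flank windows, which lie farther from the TSS, the same Hdac6 library had 0.0148 ppm at 27.5 to 30% GC. At 60 to 62.5% GC, near the median of these promoters (61.3%), the flank windows had 0.192 ppm. Whether Hdac6 signal at these promoters goes beyond their GC content was not tested. The pooled ratio over the 54 genes was 2.40 (2.15 to 2.67), against 2.12 (2.11 to 2.13) over all genes. Ratios were above 1 at 51 of 54 genes, and at 12320 of 13950 of all genes. Of the group, 46 of 54 passed 1.5-fold upward (85.2%, against 71.4% of all genes). Downward, 1 of 54 passed (1.85%, against 4% of all genes). Without scaling of the control the pooled ratio was 1.19, with 17 genes past the fold upward and 8 downward. At 21 of the 54 genes the exact test of the reads gave an adjusted p below 0.05, all of them upward, as at 35.7% of all genes, of which another 0.201% were called lower.

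**Figure D2:**
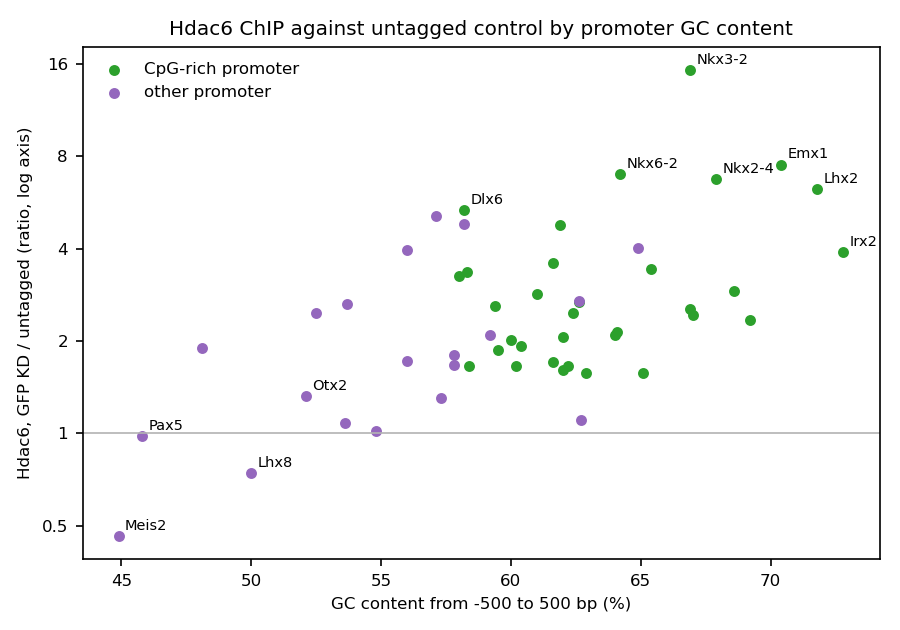
Ratio of Hdac6 signal upon GFP KD to untagged signal after span scaling (vertical log axis) against promoter GC content in percent (horizontal axis) for the 54 genes, each point 1 gene without replicates. The 34 CpG-rich promoters (green) all lie above 1.5, and the lowest ratios belong to Meis2, Lhx8 and Pax5, with GC contents from 44.9% to 50.0%.

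Across the 54 genes this ratio went up with promoter GC content (Pearson's r = 0.60, Spearman's rho = 0.48), as it did across all genes (0.62 and 0.60). The points share 2 libraries, and GC content also went with the untagged signal alone (r = −0.40) and with the Hdac6 signal alone (r = 0.45). All 34 genes with a CpG-rich promoter passed 1.5-fold upward, and 12 of the other 20 did. Of all 6588 genes with a CpG-rich promoter, 5756 passed it (87.4%). The pooled ratio was 2.81 (2.45 to 3.22) at the CpG-rich promoters and 1.82 (1.52 to 2.18) at the others. Over all genes with a CpG-rich promoter it was 2.67 (2.65 to 2.70). The highest ratios were those of Nkx3-2 (15.2, from 10 reads against 1; interval 2.84 to 867), Emx1 (7.52), Nkx6-2 (6.98), Nkx2-4 (6.72) and Lhx2 (6.25). Emx1 and Lhx2 act in the developing cortex, Nkx6-2 in the neural tube. Lhx2, whose CpG-dense start is printed above, had 0.318 ppm for Hdac6 and 0.102 ppm for untagged, before scaling of the latter, from 25 and 8 reads. Of the 4 printed promoters, Lhx6 had a ratio of 2.47, Nkx2-1 of 1.08 and Six5 of 2.35. The lowest ratios were those of Meis2 (0.464, from 4 reads against 19), Lhx8 (0.743), Pax5 (0.981), Nkx2-2 (1.02) and Nkx2-1 (1.08).

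By family, Hdac6 was highest against the control at the 6 Dlx genes, which pattern the ventral forebrain, branchial arches and limbs. Their pooled ratio was 3.60 (2.56 to 5.03), and all 6 passed the fold. Irx (3.23, 2.08 to 4.94), sine oculis (3.18, 2.29 to 4.42) and Emx (3.15, 1.68 to 6.48) genes followed, and all of their members in the comparison passed it too. The 3 Meis genes had the lowest pooled ratio, 1.08 (0.648 to 1.68), and the interval of the 2 Otx genes also held 1 (1.67, 0.873 to 3.63). Among single genes, Dlx2 had 21 Hdac6 reads against 9 untagged (ratio 4.77) and Six3 18 against 7 (4.80). Pax6, a regulator of eye and cortex, had 10 against 11 (1.72, 0.691 to 4.71). Otx2, which marks the early neural plate, had 8 against 11 (1.32).

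p400 signal upon GFP KD was broad around these promoters, as around those of other developmental regulators. Its mean was 0.247 ppm, near the 0.267 ppm of all genes, and the median gene lay at the 44.8 percentile. No gene was in the top 10%. The flanks, 1500 to 2000 bp from the TSS, were high as well, with 0.203 ppm against 0.154 ppm for all genes. The promoter therefore stood only 1.22-fold above its own flanks, against 1.73-fold for all genes and 2.02-fold for genes with a CpG-rich promoter. Hox genes had flanks of 0.202 ppm and a promoter 1.10-fold above them, forkhead, Sox and T-box genes 0.191 ppm and 1.29-fold, and other dispersed homeobox genes 0.187 ppm and 1.35-fold. Over all TSS regions, p400 signal in flank windows went up with GC content, from 0.0838 ppm at 25 to 27.5% GC to 0.226 ppm at 60 to 62.5% GC. These levels were not corrected for GC content, and its share in the high flanks was not tested. At the 37 CpG-rich promoters of the group p400 averaged 0.266 ppm, against 0.349 ppm over all genes of that class. After smoothing over 100 bp, the p400 profile of the group had its maximum of 0.265 ppm at 340 bp, against 0.298 ppm at 60 bp for all genes.

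**Figure D3:**
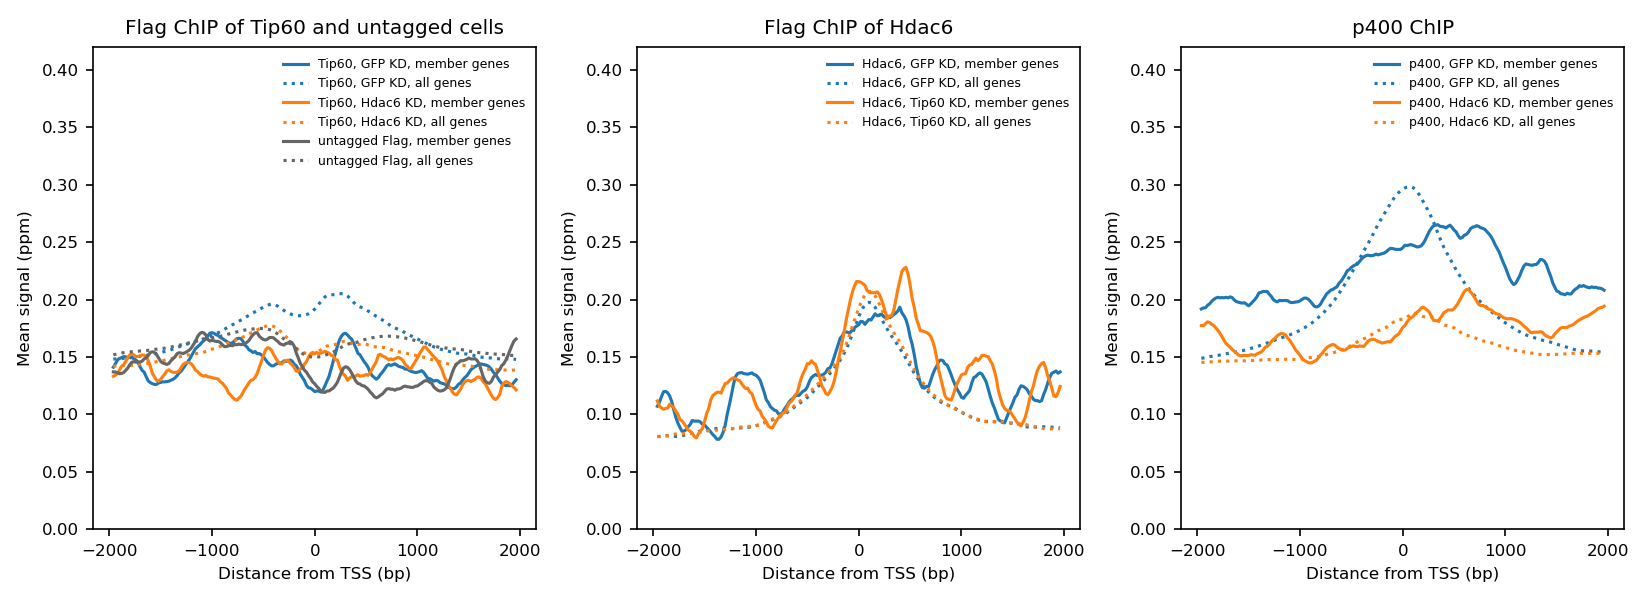
Mean signal in ppm (vertical axis, running mean over 100 bp) by distance from the TSS in bp (horizontal axis) for the 60 genes (solid, member genes) and all genes (dotted), with 1 library per condition. For the 60 genes the Tip60 lines run along the untagged line, and the p400 line upon GFP KD is flatter than that of all genes, with flanks at 0.203 ppm.

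The highest p400 levels were those of Msx2 (0.419 ppm, 36 reads), Six6os1 (0.417), Six6 (0.407) and Otx2 (0.386), and the lowest was that of Lhx9 (0.0620 ppm, 5 reads). By family, the mean was 0.374 ppm in Otx, 0.357 ppm in Msx and 0.309 ppm in the sine oculis family, and lowest in Pax with 0.195 ppm. There is no control library for the p400 antibody. Signal was also compared along the promoter. Hdac6 was higher downstream of the TSS (−100 to 300 bp) than upstream (−600 to −200 bp), with 0.181 against 0.134 ppm, a ratio of 1.36 (1.18 to 1.63). Downstream exceeded upstream at 37 of 60 genes, against 11908 of 17690 among all genes, whose ratio was 1.48. The 2 windows differ in median GC content, with 64.75% downstream and 54.75% upstream. In flank windows the same Hdac6 library had 0.144 ppm at 52.5 to 55% GC and 0.229 ppm at 62.5 to 65% GC. Whether the difference by position goes beyond GC content was not tested. For p400 the ratio was 1.07 (0.949 to 1.22), against 1.21 over all genes. For Tip60 it was 0.929 (0.767 to 1.10), against 1.03, and in the untagged control 0.774 (0.667 to 0.933), against 0.901. The maximum of the smoothed Hdac6 profile lay at 400 bp, against 100 bp for all genes. Across the 54 genes Tip60 and p400 levels went together weakly (r = 0.37, rho = 0.33). The same correlation was 0.67 (rho = 0.50) across all genes. For Hdac6 and p400 levels r was 0.06 (rho = 0.08), against 0.55 (rho = 0.42) across all genes. For Hdac6 and Tip60 levels r was 0.08 (rho = 0.01), against 0.36 (rho = 0.20).

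Upon Hdac6 KD, Tip60 signal over these promoters was at the level of its control, whereas over all genes it was lower. The mean over the 60 genes was 0.145 ppm, against 0.144 ppm upon GFP KD, and both lie at the untagged level of 0.141 ppm. Pooled over the 54 genes the KD library stood to its GFP KD control at 1.02 (0.906 to 1.15), against 0.816 (0.811 to 0.821) over all genes. Ratios were below 1 at 27 genes and above 1 at 27. Past 1.5-fold, 15 of 54 were lower (27.8%, against 36.2% of all genes) and 11 were higher (20.4%, against 11.5%). The downstream window gave 1.10 (0.919 to 1.34) and the upstream window 1.03 (0.880 to 1.27). Part of the difference between the libraries went with base composition also far from promoters: in flank windows, the ratio of the KD library to its control went from 0.957 at 42.5 to 45% GC to 0.723 at 62.5 to 65% GC. The fall was not even: the ratio was 0.798 at 57.5 to 60% GC and 0.839 at 60 to 62.5% GC, near the median of these promoters. After division by the flank ratio of the same GC content, the pooled ratio was 1.33 for the 54 genes and 1.02 for all genes, with 8 of 54 lower (14.8%, against 22.4% of all genes) and 20 of 54 higher (37.0%, against 21.8%) past the fold. With libraries scaled to equal flank signal the values were 1.09 and 0.865.

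**Figure D4:**
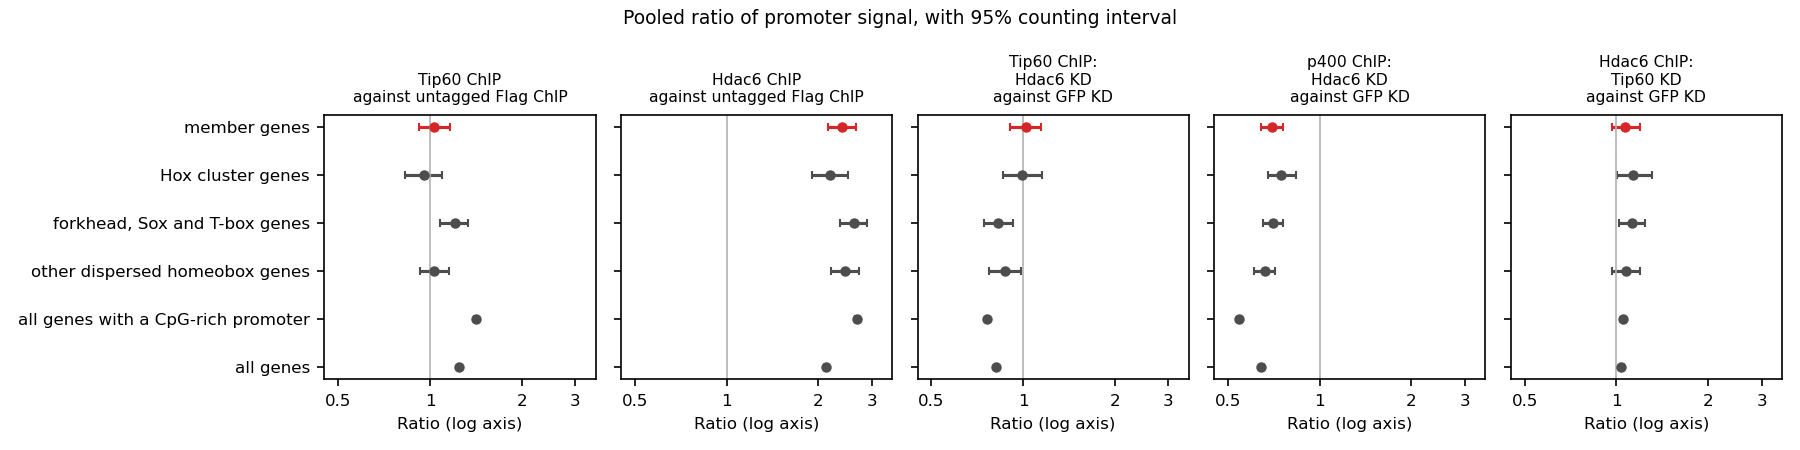
Pooled ratio of promoter signal (horizontal log axis) in the 5 comparisons, with 95% exact binomial counting intervals, for the 54 homeobox and paired genes (red, member genes), other gene lists and all genes (vertical axis). The group sits at 1.03 for Tip60 against untagged and 1.02 for Tip60 upon Hdac6 KD, where all genes sit at 1.24 and 0.816.

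Single genes differed in both directions. Tip60 reads upon GFP KD and Hdac6 KD were 14 and 2 at Meis3 (ratio 0.139, 0.0175 to 0.693), 19 and 3 at Nkx2-2 (0.153, 0.0333 to 0.597) and 13 and 3 at Otx1 (0.286, 0.0470 to 0.935). Nkx2-2 specifies ventral neural tube and endocrine pancreas, and Otx1 acts in forebrain and sense organs. Nkx6-2 and Irx6 followed with 0.350 and 0.425. In the other direction, Pax7, which marks muscle stem cells and dorsal neural tube, went from 7 to 20 reads (3.32, 1.29 to 8.91), Msx1 from 4 to 12 (3.20, 1.01 to 14.2) and Six3 from 6 to 16 (2.90, 1.10 to 9.27). Pax9 and Nkx2-5 were both at 2.22. Those 6 genes named with intervals were the only ones of the 54 whose interval left out 1, 3 on each side (5.56% each), against 1538 of the 13950 genes below 1 and 312 above. At Pax7 and Msx1 the GFP KD value, 0.0919 and 0.0570 ppm, was below the untagged value of 0.205 and 0.130 ppm. None of the 54 passed an adjusted p of 0.05 in the exact test of reads, where 6 had an unadjusted p below 0.05, as did 1850 of the 13950 genes, and the lowest adjusted p was 0.103. Of all genes, 0.832% were called lower and 0.043% higher.

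p400 signal was lower upon Hdac6 KD over these promoters, as it was over all genes. The mean went from 0.247 to 0.175 ppm, which equals the flank signal of the same genes in that library (0.175 ppm). The pooled ratio over the 54 genes was 0.695 (0.640 to 0.756), a change of −30.5%, against 0.641 (0.638 to 0.644) over all genes, which lies just inside the interval of the group. Over all genes with a CpG-rich promoter it was 0.543 (0.539 to 0.547), and at the 34 CpG-rich promoters of the group 0.686 (0.619 to 0.761). Ratios were below 1 at 44 of 54 genes, and at 11549 of 13950 of all genes. Past 1.5-fold, 26 of 54 were lower (48.1%, against 53.2% of all genes) and 1 was higher (1.85%, against 4.54%). After division by the p400 flank ratio of the same GC content, the pooled ratio was 0.740 for the 54 genes and 0.661 for all genes. For all genes with a CpG-rich promoter it was then 0.610. Promoters above 65% GC were divided by the ratio at 62.5 to 65% GC, the highest content with enough flank windows. That ratio was 0.785, from 111 windows, while from 50 to 62.5% GC the flank ratios lay between 1.01 and 1.11. Lower signal reached the flanks: from −2000 to −1500 bp the ratio was 0.843 (0.749 to 0.967), and from 500 to 1500 bp it was 0.786 (0.721 to 0.853), where all genes had 0.962 and 0.853.

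Read by gene, p400 upon GFP KD and Hdac6 KD was 33 and 13 reads at Otx2 (0.386 and 0.126 ppm, ratio 0.326, 0.153 to 0.620). It was 36 and 17 at Msx2 (ratio 0.386), a regulator of skull and limb growth, and 31 and 15 at Otx1 (0.390). Nkx6-1, which acts in beta cells and motor neurons, had 29 and 14 (0.375), Irx2 23 and 10 (0.358), and Six6os1 36 and 20 (0.459). These are the 6 of 54 genes at which the exact test of reads gave an adjusted p below 0.05, from 0.00568 at Otx2 to 0.0375 at Irx2. The test compares 2 libraries, and by it 19.6% of all genes were called lower and 0.301% higher. Meis2 had the lowest ratio, 0.261, from 14 and 5 reads (adjusted p = 0.0794 by the exact test). At the upper end were Nkx2-5, a cardiac regulator, with 12 and 24 reads (1.64), Emx1 with 19 and 29 (1.24), Dlx3 with 19 and 29 (1.23), Lhx3 with 18 and 27 (1.21) and Pax6 with 17 and 25 (1.18). No interval of a gene above 1 left out 1.

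**Figure D5:**
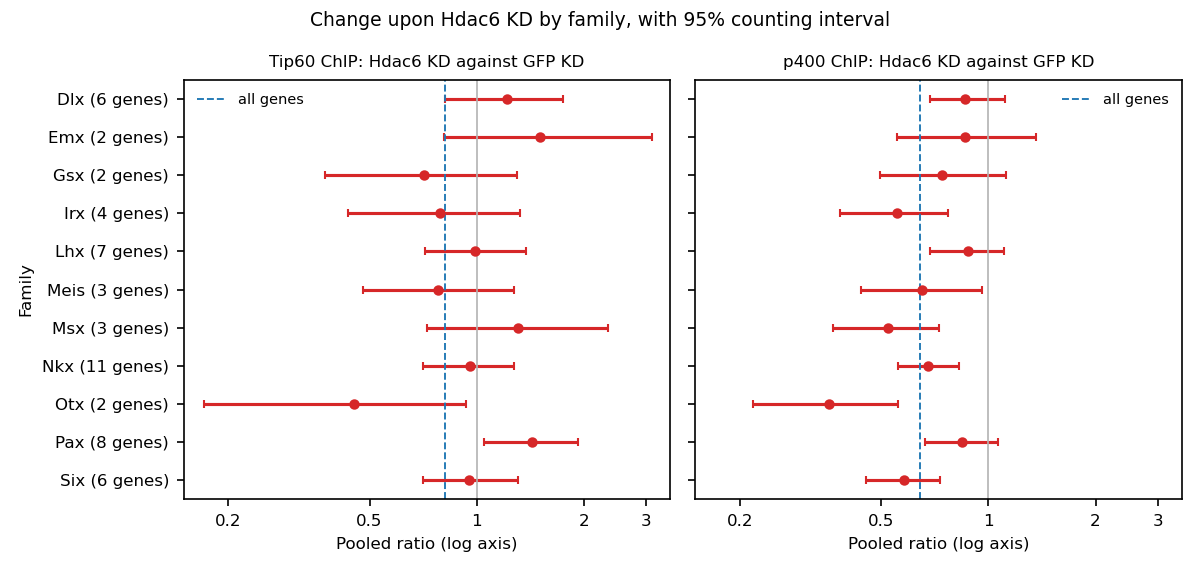
Pooled ratio, Hdac6 KD over GFP KD, (horizontal log axis) for Tip60 ChIP and p400 ChIP in each of the 11 families (vertical axis), with 95% exact binomial counting intervals, and the pooled ratio of all genes as a dashed line. For p400, Otx, Msx, Irx, the sine oculis family, Meis and Nkx lie below 1 with their intervals, and for Tip60 the Pax interval lies above 1 and the Otx interval below it.

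By family, p400 was lowest upon Hdac6 KD at the 2 Otx genes, whose reads were 64 in the control and 28 in the KD library (0.357, 0.218 to 0.558). Then came Msx (0.522, 0.367 to 0.725), Irx (0.553, 0.383 to 0.768), sine oculis genes (0.578, 0.452 to 0.730), Meis (0.649, 0.439 to 0.960) and Nkx (0.675, 0.555 to 0.826). The intervals of Dlx (0.861), Emx (0.856), Lhx (0.875), Pax (0.841) and Gsx (0.739) held 1. For Dlx (0.685 to 1.11), Lhx (0.686 to 1.11) and Pax (0.664 to 1.06) genes the interval also left out the all-gene ratio of 0.641. For Tip60, the pooled ratio of the 8 Pax genes was 1.43 (1.05 to 1.93) and the Otx genes went from 24 to 9 reads (0.452, 0.171 to 0.931). Otx was thus the family with the lowest ratio for both proteins, from 2 genes. This rests in part on the Otx2 region used, which was chosen for its read number. At the other Otx2 regions, p400 reads upon GFP KD and Hdac6 KD were 12 and 17, and 16 and 15. Tip60 reads there were 10 and 9, and 5 and 7. Across the 54 genes, the log2 changes of Tip60 and p400, which share no library, were nearly unrelated (r = 0.08, rho = 0.11), as across all genes (0.08 and 0.08).

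Hdac6 signal upon Tip60 KD, in the library whose genotype label names an Hdac6 KD, was 0.181 ppm on average over the 60 genes, against 0.168 ppm upon GFP KD. The pooled ratio over the 54 genes was 1.07 (0.965 to 1.20), against 1.04 (1.03 to 1.04) over all genes. Past 1.5-fold, 4 of 54 were lower (7.41%, against 14.7% of all genes) and 9 were higher (16.7%, against 17.8%). Per gene, levels in the control and KD libraries had r = 0.50 for Hdac6, 0.26 for Tip60 and 0.20 for p400, and across all genes 0.70, 0.52 and 0.49. By rank the gaps were smaller, with rho of 0.51, 0.23 and 0.19 in the group and 0.59, 0.37 and 0.23 across all genes. Nkx2-4 was the only gene whose interval left out 1, with 16 reads upon GFP KD and 27 upon Tip60 KD (2.13, 1.10 to 4.21). The other high ratios were those of Meis2 (2.74, from 4 to 10 reads), Irx6 (2.26), Lhx8 (1.88) and Nkx2-2 (1.87). The lowest were those of Meis1 (0.310, from 13 to 3 reads), Nkx6-2 (0.548), Dlx1 (0.549), Pax7 (0.594) and Six6os1 (0.668). Meis2, Lhx8 and Nkx2-2, high here, are among the 5 lowest for Hdac6 upon GFP KD against the untagged control, and both comparisons share the GFP KD library. In the exact test 0 of the 54 genes passed an adjusted p of 0.05, and of all genes 0% were called lower and 0% higher. Of the 54, 1 had an unadjusted p below 0.05 (Nkx2-4), as did 451 of all genes.

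Other developmental regulators were set beside these genes. For Tip60 against untagged, the pooled ratio was 0.955 (0.829 to 1.10) at 35 Hox genes and 1.03 (0.926 to 1.16) at 57 other dispersed homeobox genes, but 1.21 (1.08 to 1.34) at 63 forkhead, Sox and T-box genes. For p400 upon Hdac6 KD these lists had 0.749 (0.675 to 0.838), 0.664 (0.607 to 0.716) and 0.701 (0.651 to 0.760). Tip60 upon Hdac6 KD was at 0.993 (0.856 to 1.16), 0.872 (0.773 to 0.982) and 0.829 (0.742 to 0.927) in the same order. The intervals of all 3 lists overlap that of the 54 genes (0.906 to 1.15), and the differences between lists were not tested. Their promoters were GC-rich too, with median GC contents of 58.0%, 62.0% and 62.7%. A CpG-rich promoter was found in 53.8%, 48.4% and 56.5% of their genes, against 61.7% in the group.

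The genes under the read minimum were Irx1, Irx4, Six2, Lhx9, Nkx2-6 and Pax4, with a mean of 8.14 to 9.71 reads. Irx1, Irx4 and Six2 have GC contents from 67.7% to 71.5%, and Irx1 had 5 and 1 Tip60 reads in the control and KD library, with 16 Hdac6 reads. Pax4, a pancreatic regulator with only 3 CpGs in 1 kb, had 7 p400 reads in the control and 16 in the KD library. With these 6 genes included, the pooled ratios were 1.02 for Tip60 against untagged, 2.39 for Hdac6 against untagged, 1.01 for Tip60 and 0.708 for p400 upon Hdac6 KD, and 1.08 for Hdac6 upon Tip60 KD.

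Alternative starts of a gene could differ. Otx2 has 3 TSS regions on chromosome 14, at positions 49282547, 49284781 and 49287181 (minus strand). The p400 reads upon GFP KD and Hdac6 KD were 33 and 13 at the middle position, used above and 140 bp from an annotated start, but 12 and 17 at the first position and 16 and 15 at the last. The lower p400 at Otx2 was thus seen at 1 of its 3 regions, the one chosen for its read number, to which the 33 reads upon GFP KD contributed. At Lhx3, which specifies pituitary and motor neurons, the start used above (position 26063809 on chromosome 2) had 18 and 27 p400 reads, and the start at 26062076, 1733 bp away, had 17 and 31. The start at 26058386 had 31 and 29. Lhx3 held 20 to 25 Hdac6 reads upon GFP KD at each of its 3 starts. At the second start of Pax6 (position 105516602 on chromosome 2) p400 was 20 and 22 reads, against 17 and 25 at the first. Lhx2, high for Hdac6 against untagged, had 25 Hdac6 reads upon GFP KD and 8 untagged reads at the start used above. At its other start, position 38194801 on chromosome 2, the reads were 10 and 13, not scaled for depth. The start used was chosen for its read number, to which the 25 Hdac6 reads contributed. Nkx2-1, low for Hdac6 against untagged, had 6 Hdac6 reads upon GFP KD and 11 untagged reads at the start used above (53.6% GC). At its other TSS region, position 57636093 on chromosome 12 with 61.1% GC, the reads were 10 and 6, not scaled for depth. The low Hdac6 ratio of Nkx2-1 thus depends on the region used.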

How the data were processed

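ChIP-seq was collected in 7 libraries of mouse ESCs, 1 per condition. The authors mapped reads to mm9 with Bowtie (version not given in the sources used here) after CASAVA 1.8.2, extended them, and deposited coverage signal in ppm at 201 positions every 20 bp around each TSS; duplicate reads were kept. The deposited signal moves in whole multiples of a step, the value of 1 read, which puts the depth between 9226700 and 11586200 reads for the Hdac6 ChIPs, 19161100 and 23146800 for the other Flag ChIPs, and 25308300 and 31375600 for p400. To count reads, the signal of a gene was summed, expressed in steps, and divided by the length that a lone read covers. A ratio uses the signal itself, and its interval the rounded reads.

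The p400 rows were joined to the others by identifier and file order, which held in 1307 of 1307 pairs of rows where the overlap of nearby profiles could tell file order from swapped order. GC content and sequences come from the mm9 genome, with 11 of the 60 genes lacking an annotated start within 100 bp of the row. The genes, lists and named genes were chosen with earlier results of these data known. Named are the 5 highest and 5 lowest ratios of each comparison, a list of regulators where their values bear on a result, and family extremes; 1 gene of the group is counted in sums and families but not reported here singly. The classes by CpG content were added after seeing the data. Alternatives were other windows, no read minimum, all rows, equal flank signal, a GC correction from flank windows, a 2-fold limit and an exact binomial test of each gene's reads, adjusted over all genes by Benjamini-Hochberg. Calculations used Python 3.11.15, numpy 2.4.6, scipy 1.17.1 and pandas 2.3.3, and were tested on simulated data.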

Additional observations from a re-analysis of the deposited data

How the results depend on the processing

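Of 88 recomputed values for the 10 results, 72 stayed within the counting interval of the pooled ratio or within 1.5 times the count, and 16 moved. No pooled ratio whose interval left out 1 changed sides of 1. Both Tip60 ratios, whose intervals held 1, did: Tip60 against untagged (1.03) was 0.984 with all TSS regions and 0.977 near annotated starts, and Tip60 upon Hdac6 KD (1.02) was 0.955 from −1000 to 1000 bp. For the latter, the split of 15 lower and 11 higher became 8 and 20 with the GC correction, 5 and 9 at 2-fold, 16 and 17 in the downstream window and 12 and 13 with equal flank signal. Of all genes, 22.4% were lower and 21.8% higher with the GC correction, and 32.1% and 13.9% with equal flank signal. Shares of all genes at 2-fold, in other windows and without scaling are not given, so those counts cannot be read as particular to the group. With a 2-fold limit, the number of genes past the fold was 12 for Tip60 against untagged, 14 for Tip60 and 10 for p400 upon Hdac6 KD, and 4 for Hdac6 upon Tip60 KD, instead of 24, 26, 27 and 13. The exact test called 0, 0, 6 and 0 of these, and 21 of 54 for Hdac6 against untagged. Fewer genes past a stricter limit follow from its construction. For Hdac6 against untagged, the pooled ratio of 2.40 became 2.87 in the downstream window, 2.10 from −1000 to 1000 bp, 2.10 with equal flank signal, which shifted the median of all genes by −0.20 (log2), and 1.19 without scaling of the control, where 25 genes passed the fold. The GC correction moved the pooled ratio for Tip60 upon Hdac6 KD from 1.02 to 1.33 and the median of all genes by 0.32 (log2). For Hdac6 upon Tip60 KD, the downstream window put 27 genes past the fold. For these, except the lack of scaling, the cause was not tested. Leaving out Six6os1, or the rows without an annotated start within 100 bp, both added after seeing the data, kept every pooled ratio within its interval. No paired analysis was possible because each condition has 1 library. Depth limits what can be said of single genes, at a median of 9 to 20.5 reads per promoter. Among the 54 genes, intervals that left out 1 numbered 2 (Tip60 against untagged), 25 (Hdac6 against untagged) and 6 (Tip60, Hdac6 KD). They numbered 10 for p400 upon Hdac6 KD and 1 for Hdac6 upon Tip60 KD. The 25 genes (46.3%) all lay above 1, against 45.7% of all genes above and 0.394% below. The 10 genes for p400 (18.5%) all lay below 1, against 33.6% of all genes below and 0.996% above. For Hdac6 upon Tip60 KD the 1 gene (1.85%) lay above 1, against 2.04% of all genes above and 1.19% below. Values of all genes for both Tip60 comparisons are given above.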
